A study of Bos taurus and Bos indicus with 6 samples.

Results

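The genes described here encode the proteasome, its immune variant and the factors that cap, open or assemble it, and their transcripts were measured in leukocytes from the blood of cattle of the Brahman and Holstein breeds. They were taken as every probe set with a single gene symbol that starts with PSMA, PSMB, PSMC, PSMD, PSME, PSMF or PSMG. This gave 46 probe sets for 40 genes, out of 9155 named genes on the array. For each gene the probe set with the highest mean over the 6 arrays was used. Of the 40 genes, 39 encode proteasome subunits, activators, a regulator or assembly factors. The remaining gene, PSME3IP1, shares the prefix only because its product binds an activator, and it is given apart. The RefSeq table of the cattle assembly ARS-UCD2.0 lists 10 further protein-coding genes with these prefixes, among them PSMA2, PSMD3 and PSME3, which were not analysed here.

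The study compared 3 Brahman (Bos indicus) with 3 Holstein (Bos taurus) animals, all female, 6 months old and under heavy challenge with the cattle tick Rhipicephalus microplus. Red cells of jugular blood were lysed, and RNA of each animal's whole white cell pellet was hybridised to its own array, with no sorting or culture. All 6 animals carried ticks, and uninfested animals were not analysed here, so breed differences that exist without ticks are part of every value. Values are log2 expression values from RMA. Each difference is the Brahman mean minus the Holstein mean, and a negative one means less signal in Brahman.

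The proteasome is the protease that degrades ubiquitin-tagged proteins in the cytosol and nucleus. Its barrel, the 20S core, is built from rings of alpha and beta subunits, and the beta subunits PSMB6, PSMB7 and PSMB5 cut the substrate. A 19S cap recognises the ubiquitin tag, removes it and unfolds the protein with a ring of ATPases. Interferon gamma induces PSMB9, PSMB10 and PSMB8, which take the places of the constitutive cutters in newly built cores. It also induces PSME1 and PSME2, which form the PA28 activator, and this immunoproteasome supplies peptides for MHC class I. Leukocytes carry much of it without infection.

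Transcripts of proteasome genes had lower values in Brahman than in Holstein leukocytes for most members, by small amounts, and no single gene passed the test over the whole array. Of the 40 genes, 35 had a lower mean in Brahman, against 51.7% of all 9155 named genes, and 56.3% of those with a mean log2 value of at least 6. The median difference over the 40 genes was -0.21, against -0.01 over all named genes and 0.02 over all probe sets. The count of 35 was 36 when each array was centred on its median and 33 after a second quantile normalisation. The largest differences were those of the immune subunit PSMB10 (-0.55), the PA28 subunit PSME2 (-0.50) and the cap ATPase PSMC2 (-0.49).

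With limma and Benjamini-Hochberg adjustment over 24016 probe sets, 0 of the 40 genes passed an adjusted p under 0.05, where 0.137% of all probe sets did. At an unadjusted p under 0.05, 10 of the 40 genes (25%) were lower in Brahman and 0 were higher. The same share was 6.47% over all probe sets, 9.62% over named genes with 1 probe set each, and 11.8% over named genes at 6 or above, while 6.23% of named genes were higher. In 11 of the 40 genes (27.5%) all Brahman values lay below all Holstein values, against 8.37% of probe sets and 12.2% of named genes. In 0 of the 40 all Brahman values lay above, against 10.4% of named genes. These shares describe the family and are not a test of it, since its members share arrays and may vary together.

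The count of 10 depended on which animals were included. It became 9, 4 and 3 when Brahman 1, 2 or 3 was left out, and 4, 4 and 19 when Holstein 1, 2 or 3 was. Adding the hybridisation spike-in level of each array to the model gave 4. PSMB10 was the only gene of the 10 with an unadjusted p under 0.05 under all 14 alternative settings.

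**Figure D1:**
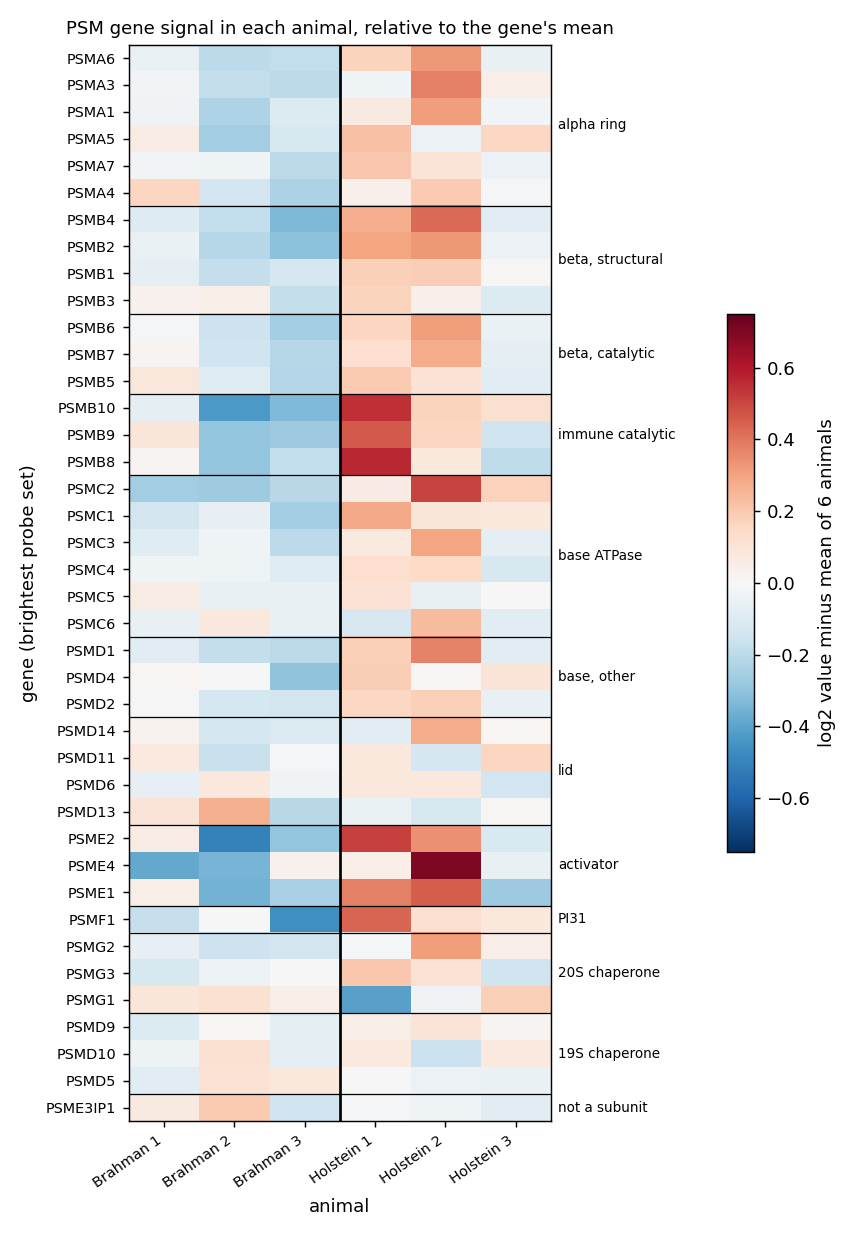
Each cell is the log2 value of a gene in an animal minus the mean of that gene over the 6 animals, with Brahman animals in the left columns, Holstein animals in the right columns and genes ordered by their role. Blue prevails in the Brahman columns, 35 of 40 genes have a lower Brahman mean, and Holstein 3 is paler than Holstein 1 and Holstein 2.

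The alpha ring closes the barrel and holds the gate through which substrates enter. All 6 measured alpha genes had lower means in Brahman, with differences from -0.29 (PSMA6) to -0.15 (PSMA4). PSMA6 read 11.87, 11.72 and 11.73 in Brahman 1, 2 and 3, against 12.09, 12.24 and 11.87 in Holstein 1, 2 and 3. Brahman 1 stood slightly above Holstein 3, at 11.869 against 11.865, and this narrow overlap was the only one for that gene. The difference was -0.29 (SE 0.12, limma adjusted p = 0.349). PSMA1 was the only alpha gene whose breeds did not overlap, and its gap was narrow as well, with 9.812 in Brahman 1 against 9.820 in Holstein 3. PSMA3 (-0.26), PSMA1 (-0.24), PSMA5 (-0.22) and PSMA7 (-0.17) had limma adjusted p-values from 0.418 to 0.523.

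The structural beta subunits complete the inner rings without cutting substrate themselves. All 4 had lower means in Brahman, where 51.7% of named genes did. In 3 of them all Brahman values lay below all Holstein values, against 12.2% of named genes. PSMB4 read 11.32, 11.23 and 11.07 in Brahman 1, 2 and 3, against 11.68, 11.83 and 11.33 in Holstein 1, 2 and 3, a difference of -0.41 (SE 0.14, limma adjusted p = 0.298). PSMB2 read 10.022, 9.857 and 9.76 in Brahman, against 10.365, 10.394 and 10.024 in Holstein, a difference of -0.38 (SE 0.13, limma adjusted p = 0.289). In both genes the separation rests on a very narrow gap between Brahman 1 and Holstein 3. PSMB1 read 10.90, 10.78 and 10.84 in Brahman, against 11.14, 11.15 and 10.97 in Holstein, a difference of -0.25 (SE 0.09, limma adjusted p = 0.316). PSMB3 differed by only -0.07 (SE 0.11), with overlapping breeds.

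The constitutive cutting subunits had lower means in Brahman as well, with overlap in all 3. PSMB6, which cuts after acidic residues, read 9.84, 9.70 and 9.60 in Brahman 1, 2 and 3, against 10.02, 10.17 and 9.81 in Holstein 1, 2 and 3. Its difference was -0.28 (SE 0.12, limma adjusted p = 0.372). PSMB7, which cuts after basic residues, read 10.60, 10.43 and 10.36 in Brahman, against 10.70, 10.86 and 10.51 in Holstein, a difference of -0.23 (SE 0.12, limma adjusted p = 0.452). PSMB5, which cuts after hydrophobic residues and is the main target of proteasome-inhibiting drugs, read 8.74, 8.56 and 8.43 in Brahman, against 8.85, 8.76 and 8.57 in Holstein. Its difference was -0.15 (95% interval -0.43 to 0.13, limma adjusted p = 0.631). In each of the 3 genes Brahman 1 lay above Holstein 3 and below the other Holstein animals.

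The immune cutting subunits were lower on average in Brahman, with a wide spread among animals. PSMB10 replaces PSMB7 in the immunoproteasome. On the log2 scale it averaged 10.42 ± 0.18 in Brahman animals and 10.98 ± 0.23 in Holstein animals (SD, n = 3 each), which puts the Brahman level at 0.681 of the Holstein level. Its values were 10.63, 10.27 and 10.37 in Brahman 1, 2 and 3, against 11.24, 10.86 and 10.82 in Holstein 1, 2 and 3, with no overlap. The difference was -0.55 (SE 0.15, unadjusted p = 0.0068, adjusted p = 0.213 in limma).

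PSMB9, which replaces PSMB6, read 11.98, 11.60 and 11.62 in Brahman 1, 2 and 3, against 12.35, 12.05 and 11.74 in Holstein 1, 2 and 3. Its difference was -0.31 (95% interval -0.72 to 0.10, limma adjusted p = 0.487). PSMB8, which replaces PSMB5, read 11.83, 11.53 and 11.63 in Brahman, against 12.38, 11.89 and 11.62 in Holstein, a difference of -0.30 (95% interval -0.76 to 0.15, limma adjusted p = 0.542). Both genes overlapped between the breeds, because Holstein 3 lay below Brahman 1. Without Holstein 1 the difference was -0.09 for PSMB8 and -0.16 for PSMB9, and without Holstein 3 it was -0.47 and -0.46. In the RefSeq gene order PSMB8 and PSMB9 are separated only by TAP1, which encodes a chain of the peptide transporter. TAP1 read 11.40, 10.62 and 11.15 in Brahman 1, 2 and 3, against 11.69, 11.17 and 10.87 in Holstein 1, 2 and 3. Its difference was -0.18 (SE 0.25), and in Holstein it followed the order of PSMB8 and PSMB9, highest in Holstein 1 and lowest in Holstein 3.

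**Figure D2:**
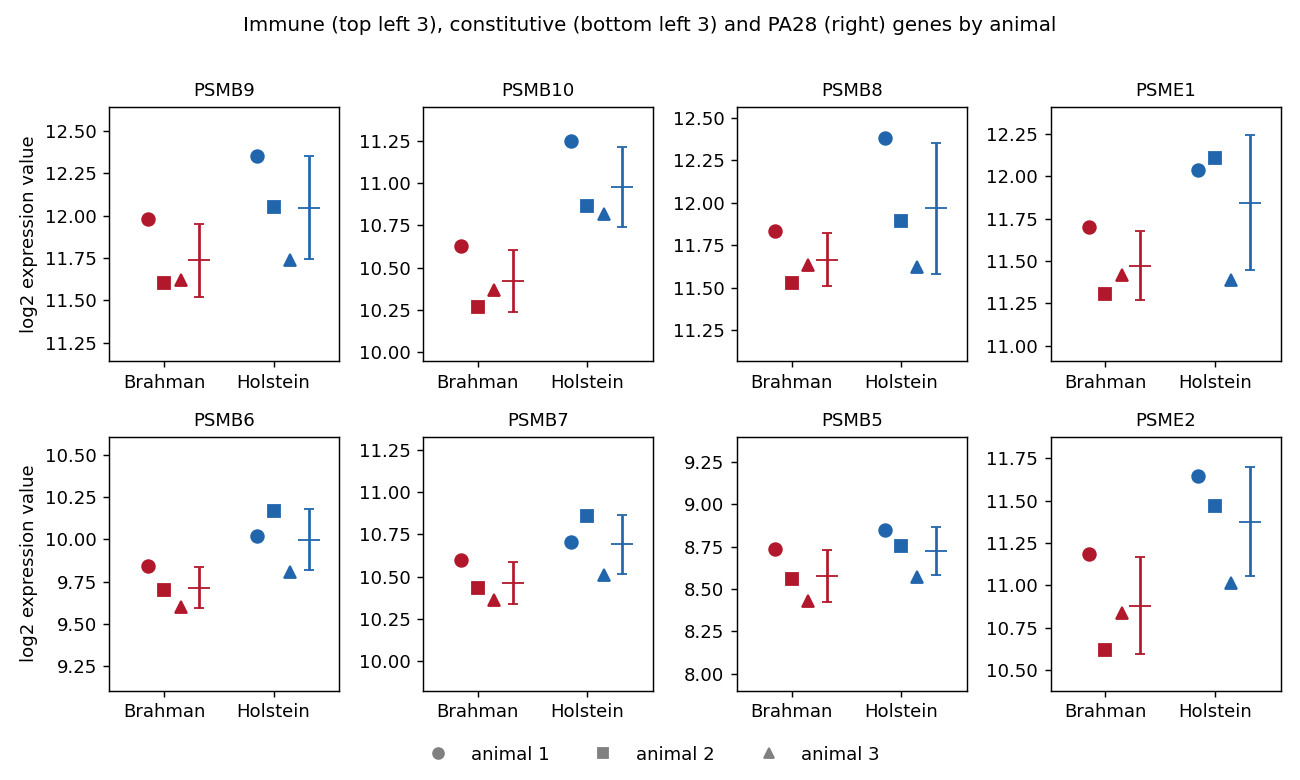
Points are log2 expression values of single animals for the immune cutting subunits (top row, left 3 panels), the constitutive subunits they replace (bottom row, left 3 panels) and both PA28 subunits (right panels), with Brahman left of Holstein and bars giving mean and SD of 3 animals. Each panel spans the same log2 range, only PSMB10 shows no overlap, and Brahman 1 is the highest Brahman animal in all 8 panels.

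Whether the immune subunits differed more between the breeds than the constitutive subunits they replace was tested on the log2 difference of each pair within an array. For PSMB10 minus PSMB7 this was 0.03, -0.16 and 0.01 in Brahman 1, 2 and 3, against 0.54, 0.01 and 0.30 in Holstein 1, 2 and 3. The breed difference of this value was -0.33 (two-sided exact permutation p = 0.3, adjusted over 3 pairs 0.75). Holstein 2 lay within the Brahman range, while Holstein 1 and Holstein 3 lay above it. For PSMB8 minus PSMB5 the breed difference was -0.15 (exact permutation p = 0.5, adjusted 0.75), and for PSMB9 minus PSMB6 it was -0.03 (exact permutation p = 0.9, adjusted 0.9). With 3 animals a breed this test cannot give a p below 0.1, so no pair could have passed 0.05 in it, whatever the size of the shift. In the model that also holds the spike-in level of each array, described with the array controls, the breed differences were larger, at -0.77 for PSMB10 minus PSMB7, -0.40 for PSMB8 minus PSMB5 and -0.40 for PSMB9 minus PSMB6. The last of these was near 0 without that term, and its sign turned with an array left out (-0.11 to 0.11). Only the breed difference of these values can be read, since signals of different probe sets are not on a common scale.

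The base of the 19S cap holds the ATPases that unfold substrates and open the gate. All 6 ATPase genes had lower means in Brahman, but over a wide range, and PSMC5 and PSMC6 turned to 0.012 and 0.030 after a second quantile normalisation. PSMC2 averaged 9.75 ± 0.03 in Brahman and 10.24 ± 0.23 in Holstein (SD, n = 3 each). It read 9.73, 9.73 and 9.78 in Brahman 1, 2 and 3, against 10.05, 10.50 and 10.17 in Holstein 1, 2 and 3, without overlap. The difference was -0.49 (SE 0.13, unadjusted p = 0.00545, adjusted p = 0.2 in limma), and it was -0.09 (unadjusted p = 0.576 in limma) once the spike-in level entered the model. The other PSMC2 probe set differed by -0.59 (SE 0.14, limma adjusted p = 0.171), also without overlap. PSMC1 read 9.09, 9.17 and 8.97 in Brahman, against 9.52, 9.32 and 9.31 in Holstein, a difference of -0.30 (SE 0.10, limma adjusted p = 0.283), without overlap. PSMC3 (-0.20), PSMC4 (-0.10), PSMC5 (-0.04) and PSMC6 (-0.02) overlapped. For PSMC6 the 95% interval of -0.30 to 0.26 leaves out a difference of the size seen for PSMC2.

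The non-ATPase subunits of the base are scaffolds and ubiquitin receptors. PSMD1, a scaffold, read 8.492, 8.398 and 8.379 in Brahman 1, 2 and 3, against 8.759, 8.949 and 8.495 in Holstein 1, 2 and 3. The breeds were separated only by the small gap between Brahman 1 and Holstein 3, and the difference was -0.31 (SE 0.13, limma adjusted p = 0.352). The ubiquitin receptor PSMD4 (-0.19) and the scaffold PSMD2 (-0.19) had limma adjusted p-values of 0.509 and 0.465. The second PSMD4 probe set differed by -0.21 and, unlike the first, did not overlap between the breeds.

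The lid subunits frame PSMD14, the enzyme that cuts the ubiquitin chain off the substrate. Their differences were small: PSMD14 differed by -0.14 (SE 0.12), PSMD11 by -0.08, PSMD6 by -0.01 and PSMD13 by 0.10, and all overlapped. A second quantile normalisation turned PSMD6 to 0.037. PSMD14 read 9.58, 9.42 and 9.45 in Brahman 1, 2 and 3, against 9.47, 9.83 and 9.57 in Holstein 1, 2 and 3, where Holstein 2 alone stood apart. The median difference was -0.04 over the 4 lid genes, -0.15 over the 6 ATPases, -0.19 over the 3 other base genes and -0.24 over the 13 constitutive core genes. After a second quantile normalisation the lid median was 0.0014, with 2 genes lower and 2 higher. These medians are descriptions of few genes each, and whether they differ was not tested.

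**Figure D3:**
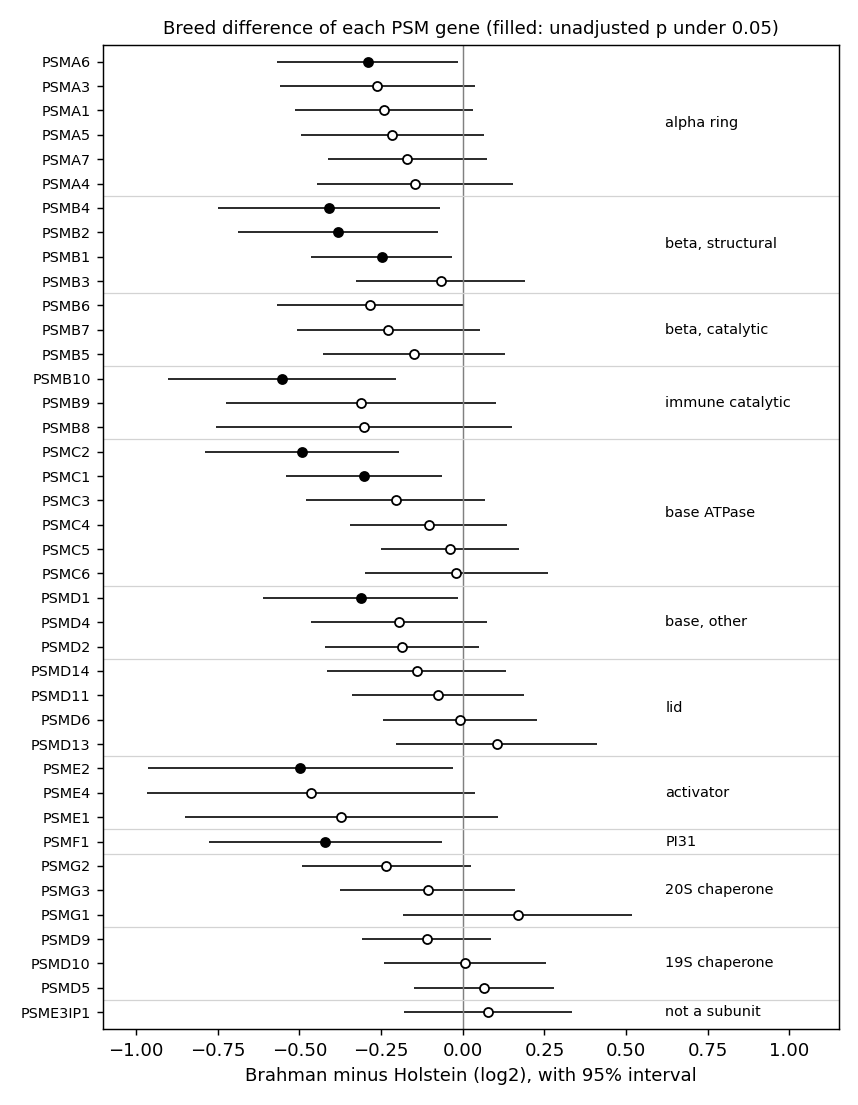
Points are the Brahman minus Holstein difference of each gene in log2 units with its 95% interval from limma, grouped by role from the alpha ring at the top, and filled points have an unadjusted p under 0.05. All 10 filled points lie left of 0, and the points of the lid and of the assembly chaperones are all open.

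The activators open the gate of the core without a ubiquitin signal. PSME2, a PA28 subunit, read 11.18, 10.62 and 10.83 in Brahman 1, 2 and 3, against 11.64, 11.47 and 11.02 in Holstein 1, 2 and 3. Brahman 1 lay above Holstein 3, and the difference was -0.50 (SE 0.20, limma adjusted p = 0.344). Its partner PSME1 read 11.70, 11.30 and 11.42 in Brahman, against 12.03, 12.11 and 11.39 in Holstein, a difference of -0.37 (95% interval -0.85 to 0.11, limma adjusted p = 0.476). In both genes Holstein 1 and Holstein 2 lay above all other animals. In the RefSeq gene order PSME1 and PSME2 have 1 protein-coding gene between them. PSME4 encodes PA200, a nuclear activator known from mouse testis for the removal of acetylated histones. It read 7.34, 7.37 and 7.75 in Brahman, against 7.77, 8.42 and 7.66 in Holstein, a difference of -0.47 (SE 0.21, limma adjusted p = 0.397), and Holstein 2 was the highest by far. Adding the spike-in level to the model turned the PSME4 value to 0.27.

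PSMF1 encodes PI31, which blocks the purified core in the test tube and is known from flies as a transport adaptor of proteasomes in neurons. It read 8.51, 8.69 and 8.22 in Brahman 1, 2 and 3, against 9.12, 8.80 and 8.76 in Holstein 1, 2 and 3. The breeds did not overlap, and the difference was -0.42 (SE 0.15, limma adjusted p = 0.307). Its order of animals differed from that of the core genes, since Brahman 2 was the highest Brahman animal.

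The assembly chaperones help to build the particle and are not part of the finished form. Of 6 measured, 3 had lower and 3 had higher means in Brahman, with a median of -0.05. The sign of PSMD10 turned under both further normalisations, which made 4 lower and 2 higher. In limma 0 of the 6 had an unadjusted p under 0.05, where 9.62% of named genes were lower and 6.23% higher. With 6 genes, 0 is near these shares. In 2 of the 6, PSMG2 and PSMD9, all Brahman values lay below all Holstein values, against 12.2% of named genes. PSMG2, which starts the alpha ring together with PSMG1, read 10.32, 10.22 and 10.24 in Brahman 1, 2 and 3, against 10.36, 10.69 and 10.42 in Holstein 1, 2 and 3, without overlap. Its difference was -0.23 (SE 0.11, limma adjusted p = 0.409). PSMG1 itself differed by 0.17 (SE 0.15), with Holstein 1 at 9.16, far below the other animals at 9.54 to 9.74, and PSMG3 differed by -0.11. Among the chaperones of the 19S base, PSMD9 read 8.10, 8.21 and 8.13 in Brahman, against 8.25, 8.30 and 8.22 in Holstein, a difference of -0.11 (SE 0.08), while PSMD5 differed by 0.06 and PSMD10 by 0.01. PSME3IP1, which is not a subunit, differed by 0.08 (SE 0.11).

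Of the 6 genes with more than 1 probe set, each had the same sign in both, apart from the turned signs of PSMC5, PSMC6 and PSMD6 given above. Besides PSMC2 and PSMD4, the dimmer PSMB2 probe set differed by -0.43 and the dimmer PSMC6 probe set by -0.07, close to the brighter ones. The dimmer probe sets of PSMC5 (-0.23, without overlap) and PSMD6 (-0.25, SE 0.26) differed more than the brighter ones. The PSMD6 probe set ranged from 7.33 to 8.18 in Brahman and from 7.52 to 8.32 in Holstein.

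Core and immune genes mostly shared the highest Brahman animal and mostly differed in the highest Holstein animal. Among the 13 constitutive core genes Brahman 1 was the highest Brahman animal in 12. Holstein 2 was the highest Holstein animal in 9 of the 13 and Holstein 1 in 4. Among the immune genes PSMB8, PSMB9, PSMB10, PSME1 and PSME2, Brahman 1 was the highest Brahman animal in all 5, and Holstein 1 the highest Holstein animal in 4, the exception being PSME1. Over all 9155 named genes, Brahman 1 was the highest Brahman animal in 37.4%, Holstein 1 the highest Holstein animal in 40.4% and Holstein 2 in 36.7%. The mean level of the 3 immune cutting subunits was 11.48, 11.13 and 11.21 in Brahman 1, 2 and 3, against 11.99, 11.60 and 11.39 in Holstein 1, 2 and 3, with overlap. That of the constitutive core was 10.51, 10.35 and 10.30 in Brahman, against 10.66, 10.73 and 10.48 in Holstein, where Brahman 1 lay above Holstein 3. The 19S cap had 9.49, 9.47 and 9.38 in Brahman, against 9.61, 9.67 and 9.52 in Holstein, without overlap. The typical SD within a breed was 0.15 log2 units for the 40 genes and 0.15 for all named genes, as the median of pooled SDs. By breed, the median SD of the 40 genes was 0.10 in Brahman and 0.17 in Holstein, against 0.11 and 0.15 for all named genes.

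**Figure D4:**
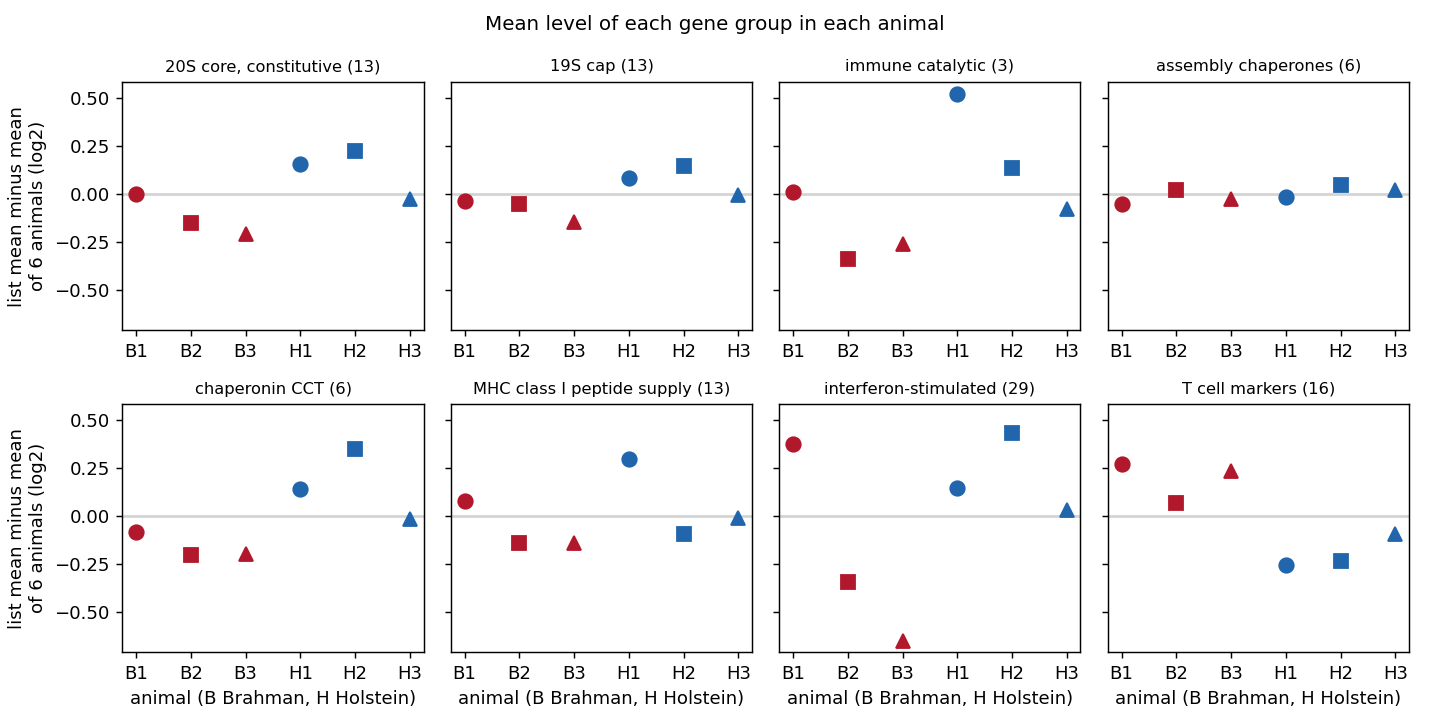
Points are the mean log2 level of a gene group in each animal minus its mean over the 6 animals, for 4 groups of proteasome genes (top row) and 4 other lists (bottom row), with Brahman 1, 2 and 3 (B1 to B3) left of Holstein 1, 2 and 3 (H1 to H3). The immune panel is highest in Holstein 1, as is the MHC class I panel, while the core and interferon panels are highest in Holstein 2 and the assembly chaperone panel is nearly flat.

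Other genes of the ubiquitin-proteasome pathway went in both directions. Of 12 measured partners and accessory factors of the proteasome, 5 were lower and 7 higher in Brahman, with a median of 0.05. With the spike-in level in the model 7 were lower and 5 higher, with a median of -0.03. In limma 1 of the 12 (8.3%) was lower at an unadjusted p under 0.05, against 9.62% of named genes. That gene was POMP, the chaperone that matures the core, at -0.26 (SE 0.10, limma adjusted p = 0.33), and next came the ubiquitin ligase UBE3C (0.34) and PITHD1 (0.21). Of 10 genes for ubiquitin activation, shuttling and unfolding, 5 were lower and 5 higher, with a median of 0.01. VCP, the ATPase that extracts ubiquitinated proteins and hands them to the proteasome, differed by -0.32 (SE 0.09, limma adjusted p = 0.23) without overlap, and the shuttle genes UBQLN4 and UBQLN2 differed by 0.26 and 0.11.

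In limma 2 of 11 regulators of proteasome gene transcription were lower and 1 was higher at an unadjusted p under 0.05, against 9.62% and 6.23% of named genes. By their means 7 were lower and 4 higher (6 and 5 after a second quantile normalisation), with a median of -0.12. With the spike-in level in the model the majority turned, to 5 lower and 6 higher with a median of 0.14. NFE2L2, an activator of antioxidant and some proteasome genes, differed by -0.57 (SE 0.14), the interferon-response factor IRF8 by -0.30 and the interferon receptor kinase JAK1 by 0.31. NFE2L1, which restores proteasome gene transcription when the protease is inhibited, differed by 0.12 (SE 0.10). IFNG, the cytokine that induces the immune subunits, read 5.01, 4.92 and 4.89 in Brahman 1, 2 and 3, against 4.96, 5.80 and 4.75 in Holstein 1, 2 and 3. These values lie around the lower quartile of all probe sets (5.07), so they are not shown to be above background.

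A list of 13 genes outside the proteasome covered peptide supply to MHC class I and the folding, loading and light chain of that molecule. Of these, 12 were lower in Brahman, with a median of -0.06. After a second quantile normalisation 8 of 13 were lower, and with the spike-in level in the model all 13 were, with a median of -0.48. In limma 1 of the 13 (7.7%), the peptide trimmer ERAP1 (-0.37, SE 0.13), was lower at an unadjusted p under 0.05, against 9.62% of named genes. The interferon-induced peptidase LAP3 differed by -0.58 (SE 0.34) and BLMH by -0.23. The mean of these genes was highest in Holstein 1, at 10.62, as it was for the immune subunits. Of 29 interferon-stimulated genes 27 had lower means in Brahman, with a median of -0.40 (24 lower and 5 higher, median -0.30, with the spike-in level in the model). In limma 5 of the 29 (17.2%) were lower and 1 was higher at an unadjusted p under 0.05, against 9.62% and 6.23% of named genes. The 3 with the smallest p were IFI35 (-0.84, SE 0.17, limma adjusted p = 0.129), IFIT2, which was higher in Brahman without overlap (0.96, SE 0.25, limma adjusted p = 0.208), and GBP4 (-1.24, SE 0.34, limma adjusted p = 0.216). The mean level of the 29 was 9.27, 8.55 and 8.24 in Brahman 1, 2 and 3, against 9.03, 9.32 and 8.92 in Holstein 1, 2 and 3. Brahman 1 was highest among the Brahman animals in 27 of the 29, as in all 5 immune genes. Among Holstein animals, Holstein 2 was the highest in 21 of the 29, whereas Holstein 1 was highest in 4 of the 5 immune genes.

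Another large protein machine gave similar values. The chaperonin CCT folds actin, tubulin and other proteins, and all 6 of its measured genes were lower in Brahman, with a median of -0.31. In limma 3 of the 6 were lower at an unadjusted p under 0.05 (CCT6A at -0.59, CCT3 at -0.33 and CCT4 at -0.32), against 9.62% of named genes. The mean level of the 6 was 10.17, 10.05 and 10.05 in Brahman 1, 2 and 3, against 10.39, 10.60 and 10.24 in Holstein 1, 2 and 3. With the spike-in level in the model 4 of the 6 were lower and 2 higher, with a median of -0.23. The order of Holstein animals was that of the constitutive core, with Holstein 2 highest and Holstein 3 lowest.

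Markers of white cells were abundant, as the label implies. The leukocyte antigen gene PTPRC averaged 12.74 in Brahman and 12.66 in Holstein, and the 9 measured leukocyte markers of a list of 10 averaged 12.67 ± 0.05 in Brahman and 12.72 ± 0.08 in Holstein (SD, n = 3 each). Globin HBB read 9.60 to 10.15 in Brahman and 8.89 to 10.22 in Holstein, while the 8 measured red cell markers of 13 averaged 5.88 and 6.00. Cell type markers moved with breed in part. T cell markers (16 of 21 measured) ranged from 9.73 to 9.93 in Brahman and from 9.41 to 9.57 in Holstein, without overlap. Their median difference was 0.33. Means were higher in Brahman for 14 of the 16, and lower for CD3G (-0.04) and CD8B (-0.15). In limma 11 of the 16 reached an unadjusted p below 0.05, all as higher values, against 6.23% of named genes. The same 11 had every Brahman value above every Holstein value, against 10.4% of named genes. NK and cytotoxic markers (10 of 13) averaged 8.27 ± 0.28 in Brahman and 7.83 ± 0.10 in Holstein (SD, n = 3 each). They did not overlap either. The NK separation rested on the granzyme gene GZMB (2.51, SE 0.26, limma adjusted p = 0.0264): without it, a choice made after its value was seen, the other 9 read 8.42, 7.80 and 8.12 in Brahman 1, 2 and 3, against 7.88, 7.97 and 7.87 in Holstein 1, 2 and 3, with overlap. The perforin gene PRF1 went the other way, at -0.60. Monocyte markers (8 of 12) ranged from 9.07 to 9.43 in Brahman and from 9.41 to 9.67 in Holstein. Of these 8 genes, 6 were lower in Brahman and 2 higher. In limma 3 of the 8 (37.5%) were lower and 1 was higher at an unadjusted p under 0.05, against 9.62% and 6.23% of named genes. That higher gene was VCAN (0.92, SE 0.13, limma adjusted p = 0.0719), without overlap, while CD14 was lower without overlap (-0.94, SE 0.20). Neutrophil markers (9 of 16) had a median difference of -0.02 and B cell markers (6 of 12) of -0.13. Eosinophil markers (2 of 9) had one of -0.01 and platelet markers (4 of 10) of 0.08. The neutrophil and eosinophil signs turned after a second quantile normalisation. In Brahman 5 of the 9 neutrophil and 4 of the 6 B cell genes were lower. The neutrophil gene ALPL (1.42) and the B cell genes BLK (0.97) and CR2 (0.35) were higher without overlap. Mean levels were 9.63 in Brahman and 9.53 in Holstein for neutrophil markers, and 10.11 and 10.01 for B cell markers. With the spike-in level in the model 5 of the 10 NK markers were lower and 5 higher, and the median of the 2 eosinophil genes was 0.96. Fewer cells of a type and less RNA per cell cannot be told apart in such bulk samples, and the part of cell composition in the proteasome values was not tested.

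Array controls moved with breed as well. The 18 hybridisation spike-in probe sets averaged 9.72 ± 0.08 in Brahman and 10.14 ± 0.22 in Holstein (SD, n = 3 each), without overlap, and were highest in Holstein 2. The actin 3′ minus 5′ difference was 1.69 ± 0.04 in Brahman and 1.86 ± 0.13 in Holstein. It did not overlap either, by a narrow gap between 1.722 in Brahman 3 and 1.728 in Holstein 1. No model held this measure, so its part in the result was not tested. The GAPDH 3′ minus 5′ difference was -0.10 ± 0.03 in Brahman and 0.05 ± 0.18 in Holstein (SD, n = 3 each), with Holstein 3 inside the Brahman range. In a model that also holds the spike-in level, the median difference of the 40 genes was -0.16, and 32 of them were lower in Brahman. That model gave larger differences for the immune subunits PSMB10 (-0.90), PSMB8 (-0.68) and PSMB9 (-0.59) and smaller ones for PSMC2 (-0.09) and the median ATPase (-0.07). Other genes moved both ways. Differences were larger for PSMF1 (-0.75), the PA28 gene PSME2 (-0.64), PSMA5 (-0.49) and the ATPase PSMC1 (-0.49). They were smaller for the other PA28 gene, PSME1 (-0.27), and for PSMA1 (-0.02). Spike-in level and breed do not overlap, so this fit separates them poorly, and their part in the result was not tested further.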

How the data were processed

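White blood cell RNA of 6 cattle, 3 Brahman and 3 Holstein, was measured on 1 array per animal. The deposited table holds log2 expression values that the authors made with RMA, per the submitters' processing notes. It subtracts background, gives all arrays a common distribution and condenses the probes of a probe set, so a global change in RNA content is removed. The RMA version is not given in these sources. Of 24128 probe sets, 112 array controls were left out and 24016 were tested. Array medians lay between 6.54 and 6.61. No detection calls were used, and the number of arrays limits the precision.

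Gene symbols came from the platform annotation, and all 40 genes matched the RefSeq table by Entrez identifier. Brahman was compared with Holstein with limma 3.58.1 in R 4.3.3 (lmFit, eBayes, breed as the only term, two-sided, Benjamini-Hochberg over all tested probe sets, threshold 0.05). Intervals are 95% intervals from the same fit. Differences within immune and constitutive pairs were compared by exact permutation over 20 splits with scipy 1.17.1. The pipeline was tested on simulated data. The genes, role groups and lists were chosen with earlier results of these data known. Values per animal are given for the catalytic, immune and PA28 genes, for genes at an unadjusted p under 0.05 and for the largest difference of each role group, and any others named, such as PSME4, TAP1, IFNG and NFE2L1, were chosen after their values were seen. Of the pathway lists the 3 genes with the smallest p are named. Alternatives were 2 further normalisations, a filter at a mean of 6, a trended and robust prior, weights for arrays, a block for the replicate number, the spike-in level as a model term, the mean of all probe sets of a gene, and leaving out each array.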

Additional observations from a re-analysis of the deposited data

How the results depend on the processing

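In the 14 alternatives 0 of the 40 genes passed the adjusted threshold, and the median difference stayed between -0.26 and -0.14, the range over leaving out each array. The count of probe sets called over the array was 33, and 10 with the replicate block, 0 with the spike-in covariate and 5 to 55 with an array left out. The count of 10 genes at an unadjusted p under 0.05 became 4 with the spike-in covariate and 3 to 19 with an array left out, and ranged from 7 to 12 otherwise. These were not always the same genes. Of the first 10, only 3 (PSMB10, PSMC1 and PSMF1) kept an unadjusted p under 0.05 in limma with the spike-in covariate. Only 2 (PSMB10 and PSMC2) did so without Brahman 3 or without Holstein 1, and all 10 did without Holstein 3. The count of 11 genes lower without overlap became 7 after a second quantile normalisation. It was 12 to 25 with an array left out, where fewer animals make overlap less likely, with 24 without Brahman 1 and 25 without Holstein 3. No such count can be made for the block or the covariate. The PSMB9 minus PSMB6 value was 0.002 with array weights and ran from -0.11 to 0.11 with an array left out, that of PSMB10 minus PSMB7 from -0.47 to -0.20 and that of PSMB8 minus PSMB5 from -0.25 to -0.0075. With the spike-in covariate the 3 values lay outside these ranges, at -0.40, -0.77 and -0.40.

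The replicate numbers were not taken to pair the animals. Same-numbered Brahman and Holstein animals had deviations from their breed means that correlated at 0.111, -0.043 and -0.074. Differently numbered animals gave -0.086 to 0.118. With so few animals this check cannot exclude a pairing. With the replicate block, 12 of the 40 genes had an unadjusted p under 0.05.

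Of 560 gene values under the alternatives, 29 changed sign, in 11 genes, and the other 29 genes kept their sign throughout. With median centring PSMD10 was -0.022. After a second quantile normalisation PSMC5 was 0.012, PSMC6 0.030, PSMD6 0.037 and PSMD10 -0.0016. With array weights PSMD6 was 0.0054 and PSMD10 -0.0042. With the spike-in covariate PSMA3 was 0.048, PSMC6 0.30, PSMD14 0.13, PSMD6 0.032, PSMD13 -0.071, PSME4 0.27, PSMG2 0.035, PSMD10 -0.22 and PSME3IP1 -0.0034. With an array left out PSMB3 ran from -0.14 to 0.0047, PSMC5 from -0.075 to 0.0058, PSMC6 from -0.085 to 0.094, PSMD10 from -0.071 to 0.046, PSMD13 from -0.0028 to 0.23, PSMD6 from -0.081 to 0.029 and PSME3IP1 from -0.002 to 0.17. The cause was not tested. Depth is not given by these arrays, and the lowest mean of the 40 genes, 7.37, lies above the lower quartile of all probe sets, 5.07.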
